A study of Komagataella phaffii GS115 with 9 samples.

Results

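The mitochondrial genome of *P. pastoris* was represented by 49 locus tags among the 5557 features of the expression table. They were chosen by their identifiers alone, as every tag that carries the prefix PP7435_MIT rather than the number of a nuclear chromosome or a name without a locus tag. Of the 49 tags, 24 had reads in at least 1 of the 9 libraries and 25 had none.

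*P. pastoris* (*Komagataella phaffii*) is a methylotrophic yeast that grows on methanol and is used to secrete foreign proteins. RNA was sequenced from flask cultures after 60 h of fermentation with methanol induction, in 3 groups of 3 biological replicates. Mut_Met_37C was the robust mutant induced at 37 °C, Mut_Met was the same mutant induced at 28 °C, and WT_Met was its parent induced at 28 °C. The robust mutant is a strain from adaptive laboratory evolution, which the labels describe by its tolerance of both oxidative and thermal stress, and all 3 groups expressed a lipase gene from the *AOX1* promoter, which methanol induces. No libraries of the parent at 37 °C were analysed here, so the effect of 37 °C was measured in the mutant only.

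The mitochondrial genome of a yeast encodes a small set of core subunits of the respiratory chain and of ATP synthase, together with the ribosomal RNAs and most of the transfer RNAs needed to translate them inside the organelle. The many other proteins of the respiratory chain and the RNA polymerase that transcribes this genome are encoded in the nucleus. Mitochondrial transcripts are made as long precursors, from which the transfer RNAs and mRNAs are cut. In *Saccharomyces cerevisiae*, mature mitochondrial mRNAs carry no poly(A) tail, and how RNA was selected for the present libraries is not given in the sources used here. The files do not pair the mitochondrial tags with gene names, so each is given by its tag number (MIT-0245 and so on) with no role attached.

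The tags were measured at very low levels. Over the 9 libraries they held 4197 reads in all, while a single nuclear tag had a median of 10625 reads, and 0 of the 49 mitochondrial tags lay above that median. The values are FPKM, the reads on a feature per kilobase of its length and per 1000000 reads of a library size, from which whole reads and lengths were recovered. The median FPKM was 0.279 for the 24 mitochondrial tags with reads and 69.1 for nuclear tags, and the highest mean of a mitochondrial tag over the 9 libraries was 4.84 FPKM. Tags without reads were common among them, since 51.0% of the mitochondrial tags had no read in any library, against 0.274% of the 5478 nuclear tags (15 tags). The reason for this was not tested. In bulk RNA, fewer mitochondria per cell and less RNA per mitochondrion cannot be told apart.

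Depth was similar across libraries, with 13131111 to 15945465 reads recovered in each. A feature of 1000 bases with 3 reads, the smallest number treated as detected, has 0.163 to 0.253 FPKM, and one of 73 bases has 2.24 to 3.47 FPKM. The library size used in the deposited values was 1.15 to 1.23 times the recovered reads in Mut_Met_37C, 0.900 to 0.925 times in Mut_Met and 0.874 to 0.879 times in WT_Met, so FPKM of the 37 °C libraries were scaled down relative to the other groups. Over all features, replicate 1 of Mut_Met_37C stood apart. Chi-square per degree of freedom was 49.8 and 48.5 between it and the other replicates of its group, and 7.83 between those 2. It was 3.84 to 8.55 between replicates of the other groups. Over the mitochondrial tags with enough reads, it was 4.43 and 5.13 between replicate 1 of Mut_Met_37C and the others of its group. The largest value for these tags was 7.29, between replicates 1 and 3 of WT_Met. No libraries were duplicates.

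The 24 tags with reads fell into 2 length classes. The recovered lengths of 14 tags ran from 231 to 4353 bases and were all multiples of 3, and 10 tags were 41 to 74 bases long, of which 8 measured 72 to 74 bases. For 8 tags, seen in 1 library only or with read numbers that share a factor, the smallest whole length was taken, and a multiple of it cannot be told apart from it. Reads were concentrated in few tags: MIT-0245, of 4353 bases, held 58.1% of all mitochondrial reads, the leading pair held 79.2% and the leading 3 held 87.9%. At the other end, 18 of the 24 tags had under 50 reads over the 9 libraries, and 10 had 5 or fewer.

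The mitochondrial share of the recovered reads was lower in both mutant groups than in the parent, which for Mut_Met_37C rested on MIT-0245. Without that tag, the mean share of recovered reads was 0.00205% in Mut_Met_37C, 0.000765% in Mut_Met and 0.00131% in WT_Met. The mean of Mut_Met_37C thus lay above that of WT_Met on this scale. The share without MIT-0245 was not computed on the deposited library size. Over all 49 tags, mitochondrial reads numbered 497, 376 and 498 in the Mut_Met_37C libraries, 259, 276 and 335 in the Mut_Met libraries, and 535, 672 and 749 in the WT_Met libraries. As a share of recovered reads, these were 0.00312%, 0.00270% and 0.00351% in Mut_Met_37C, 0.00188%, 0.00210% and 0.00255% in Mut_Met, and 0.00382%, 0.00485% and 0.00549% in WT_Met. Every Mut_Met library was thus below every Mut_Met_37C library, and every library of both mutant groups was below every WT_Met library. The nearest libraries were not apart by more than counting error in 2 places. The 95% Wilson intervals were 0.00244% to 0.00299% in the lowest Mut_Met_37C library against 0.00229% to 0.00284% in the highest Mut_Met library, and 0.00321% to 0.00383% in the highest Mut_Met_37C library against 0.00351% to 0.00416% in the lowest WT_Met library. Such intervals cover counting error only.

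The distance between the groups depended on the scaling. Per 1000000 recovered reads, the tags had 31.1 ± 4.04 reads in Mut_Met_37C, 21.8 ± 3.43 in Mut_Met and 47.2 ± 8.40 in WT_Met (SD, n = 3 each). Per 1000000 of the library size in the deposited values, they had 26.03 ± 3.65 in Mut_Met_37C, 23.9 ± 3.38 in Mut_Met and 53.8 ± 9.65 in WT_Met, and on that scale the libraries of Mut_Met_37C (22.0 to 29.0) and Mut_Met (20.9 to 27.6) overlapped. Summed FPKM, which weigh short tags more, put the mean of Mut_Met_37C above that of WT_Met. They were 34.2 ± 11.2 in Mut_Met_37C, 10.7 ± 0.994 in Mut_Met and 23.3 ± 4.57 in WT_Met. The libraries of Mut_Met_37C (22.3 to 44.6) and WT_Met (19.2 to 28.2) overlapped, and the highest was replicate 1 of Mut_Met_37C. The sum over the tags is given as a description, with no test.

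**Figure D1:**
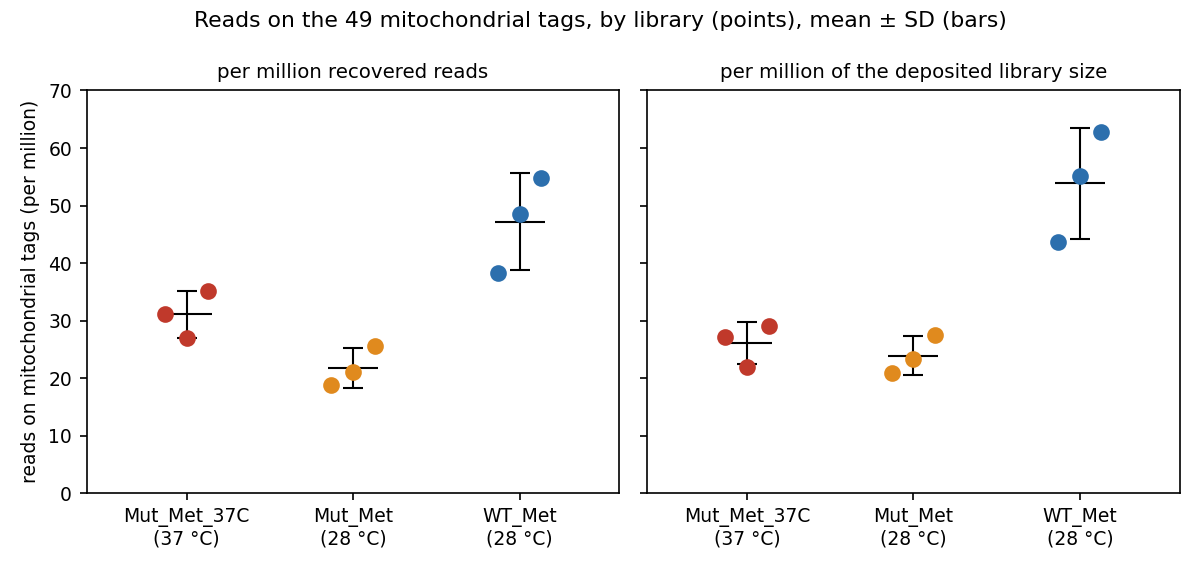
Reads on the 49 mitochondrial tags per 1000000 recovered reads (left) and per 1000000 of the library size in the deposited values (right), for Mut_Met_37C, Mut_Met and WT_Met. Points are libraries, and bars are the mean ± SD of 3. WT_Met libraries lie highest on both scales, and the mutant groups are apart on the left and overlap on the right.

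Single reads reached more tags in Mut_Met_37C than in the other groups. At least 1 read was found on 21 tags in Mut_Met_37C, on 11 in Mut_Met and on 15 in WT_Met, and 10 tags had reads in all 3 groups. The single libraries had reads on 16, 13 and 16 tags in Mut_Met_37C, on 9, 10 and 10 in Mut_Met, and on 12, 11 and 13 in WT_Met. Reads lay in Mut_Met_37C only for 9 tags, in Mut_Met only for 0 tags and in WT_Met only for 2 tags. Of the 9 tags with reads in Mut_Met_37C only, 7 were short ones and 7 had 3 reads or fewer in all. Counting only tags with at least 3 reads in a library, there were 10, 9 and 10 in Mut_Met_37C, 7, 5 and 7 in Mut_Met, and 8, 10 and 9 in WT_Met, and Mut_Met_37C and WT_Met overlapped.

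Reads on the short tags lay mostly in Mut_Met_37C. Tags under 100 bases had 74 reads on 8 tags in Mut_Met_37C, 0 reads in Mut_Met and 6 reads on 3 tags in WT_Met. The reads lay mostly in a run of tag numbers from MIT-0125 to MIT-0165, which was noticed after the values were seen. Of the 9 tags in this run, 6 had reads and 3 had none. The run held 39, 11 and 22 reads in the Mut_Met_37C libraries, 0, 0 and 0 in the Mut_Met libraries, and 1, 1 and 1 in the WT_Met libraries. Replicate 1 of Mut_Met_37C was the highest of its group. As the run was picked from these same reads, its separation of the groups is a description and not a test. Mut_Met and WT_Met differed by 1 read per library, under the 3 reads treated as detected. Tag order was not checked against genome coordinates. Another 7 tags, numbered in steps of 11 from MIT-0261 to MIT-0327, had reads on 1 tag only, MIT-0316, with 2 reads in WT_Met replicate 3.

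**Figure D2:**
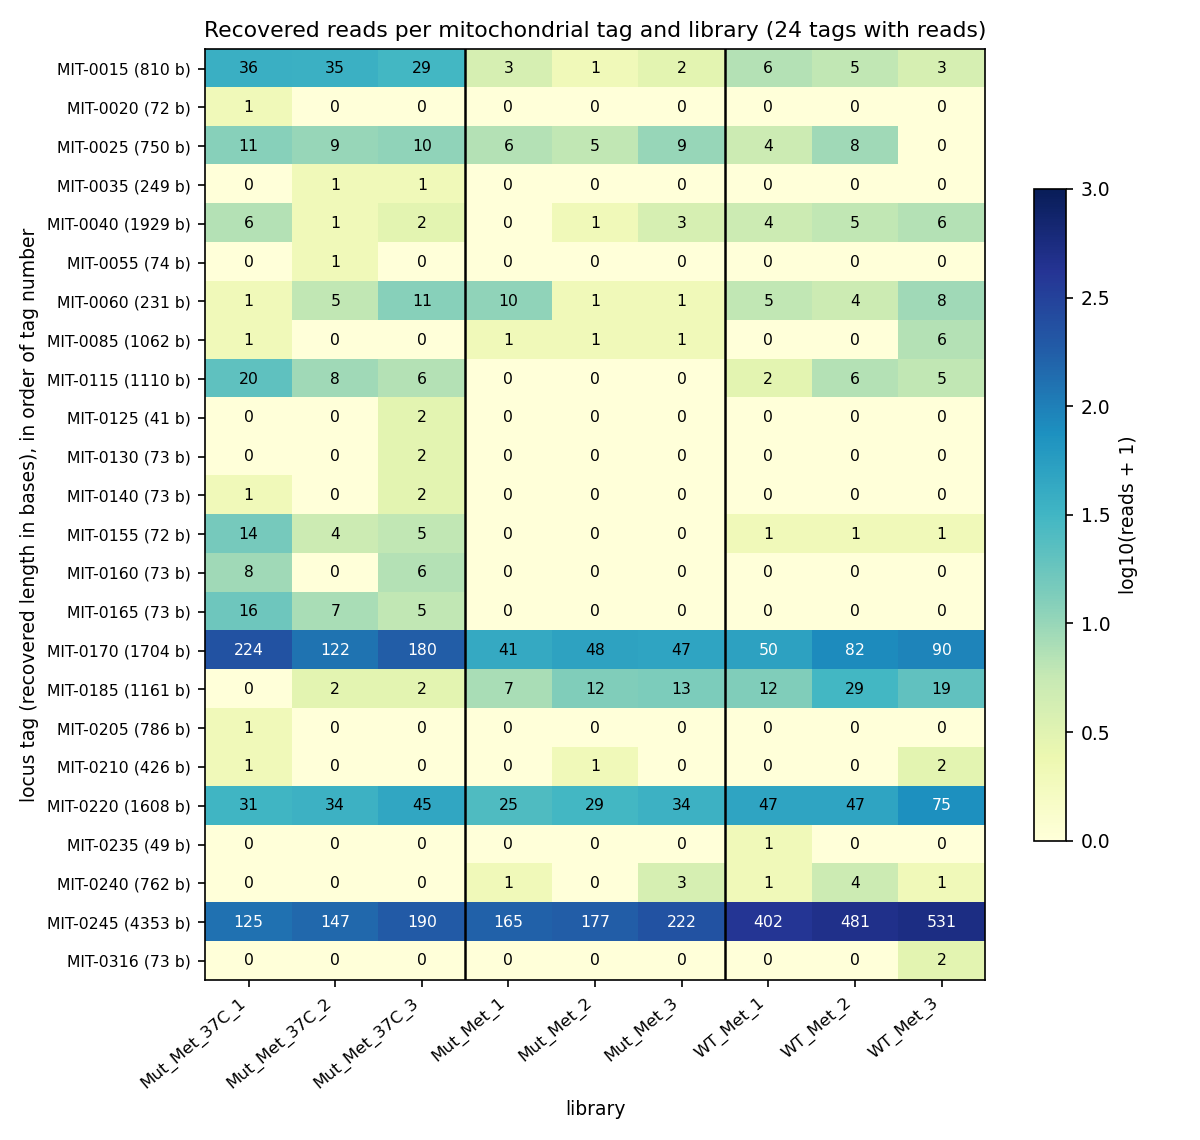
Recovered reads on each of the 24 mitochondrial tags with reads (one line per tag, with its recovered length in bases) in each of the 9 libraries (columns), with colour on a log10(reads + 1) scale. Reads on the short tags between MIT-0125 and MIT-0165 lie nearly all in the 3 Mut_Met_37C columns, and MIT-0245 and MIT-0170 hold the most reads in every library.

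The comparison of Mut_Met with WT_Met asked which transcripts differed between the robust mutant and its parent under methanol at 28 °C. Of the 15 mitochondrial tags with reads in either group, 6 passed the filter on low values (a mean of at least 1 FPKM in either group) and were tested. MIT-0245 fell in the mutant, 0 tags rose, and 5 were not called. Among the 6, MIT-0155 and MIT-0185 passed the filter only through WT_Met, and 0 tags passed only through Mut_Met. The filter itself thus favoured lower values in the mutant. Without the filter, 3 of 15 tags were called lower and 0 higher. By limma on log2(FPKM + 1) with Benjamini-Hochberg adjustment over all 5448 features tested, 36.7% of features were called lower and 29.6% higher in Mut_Met at an adjusted p under 0.05, so 1 lower tag of 6 was not above the background. With the fold change above 2 that MIT-0245 also passed, 3.58% of all features were called. At an unadjusted p under 0.05, 1 of the 6 tags passed.

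MIT-0245 had 165, 177 and 222 reads in the Mut_Met libraries, against 402, 481 and 531 in the WT_Met libraries. In FPKM these were 3.06, 3.43 and 4.197 in Mut_Met, against 7.52, 9.08 and 10.2 in WT_Met. Every mutant library was below every parent library. The mean was 3.56 ± 0.581 FPKM in Mut_Met and 8.94 ± 1.35 FPKM in WT_Met (SD, n = 3 each). The log2 fold change was -1.12 on the log2(FPKM + 1) scale (SE 0.17, limma with Benjamini-Hochberg adjusted p = 0.000469). The ratio of summed reads, scaled by library size, was 0.399 in Mut_Met over WT_Met (exact 95% counting interval 0.361 to 0.440). With each replicate left out in turn, the log2 fold change lay between -1.23 and -1.03 and the tag was called each time.

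Other tags with many reads, MIT-0170, MIT-0220 and MIT-0185, were also at lower values in Mut_Met, without passing the test. MIT-0025, of 750 bases, went the other way and was too low to be tested. It had 6, 5 and 9 reads in Mut_Met, against 4, 8 and 0 in WT_Met. Its read ratio was 1.67 (counting interval 0.776 to 3.74), and its FPKM overlapped between the groups. These tags were chosen for description after their values were seen. MIT-0170, of 1704 bases, had 41, 48 and 47 reads in Mut_Met, against 50, 82 and 90 in WT_Met, and the groups did not overlap in FPKM (log2 fold change -0.50, limma adjusted p = 0.134). MIT-0220, of 1608 bases, had 25, 29 and 34 reads in Mut_Met, against 47, 47 and 75 in WT_Met, again without overlap (log2 fold change -0.62, limma adjusted p = 0.101). On the recovered reads, limma-voom called both lower, with adjusted p = 0.0317 for MIT-0170 and 0.0101 for MIT-0220.

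MIT-0185, of 1161 bases, had 7, 12 and 13 reads in Mut_Met, against 12, 29 and 19 in WT_Met, and its FPKM overlapped between the groups. The read ratios were 0.613 for MIT-0170 (0.491 to 0.762), 0.521 for MIT-0220 (0.398 to 0.678) and 0.533 for MIT-0185 (0.336 to 0.832), each with its counting interval. MIT-0115, of 1110 bases, had 0 reads in each Mut_Met library, against 2, 6 and 5 in the WT_Met libraries. It was at least 4.33-fold lower in Mut_Met, taking 3 reads over the group as the floor, and was too low to be tested. Of the 6 tested tags, 4 were lower and 0 higher in Mut_Met without overlap between groups, where 39.1% of all features tested were lower and 32.2% higher without overlap. The 4 include MIT-0155, which passed the filter only through WT_Met. It had 0 reads in each Mut_Met library, against 1, 1 and 1 in the WT_Met libraries, at or under the floor in both groups.

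Without the filter on low values, the median log2 fold change was -0.44 over the 15 tags with reads and -0.036 over all features.

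**Figure D3:**
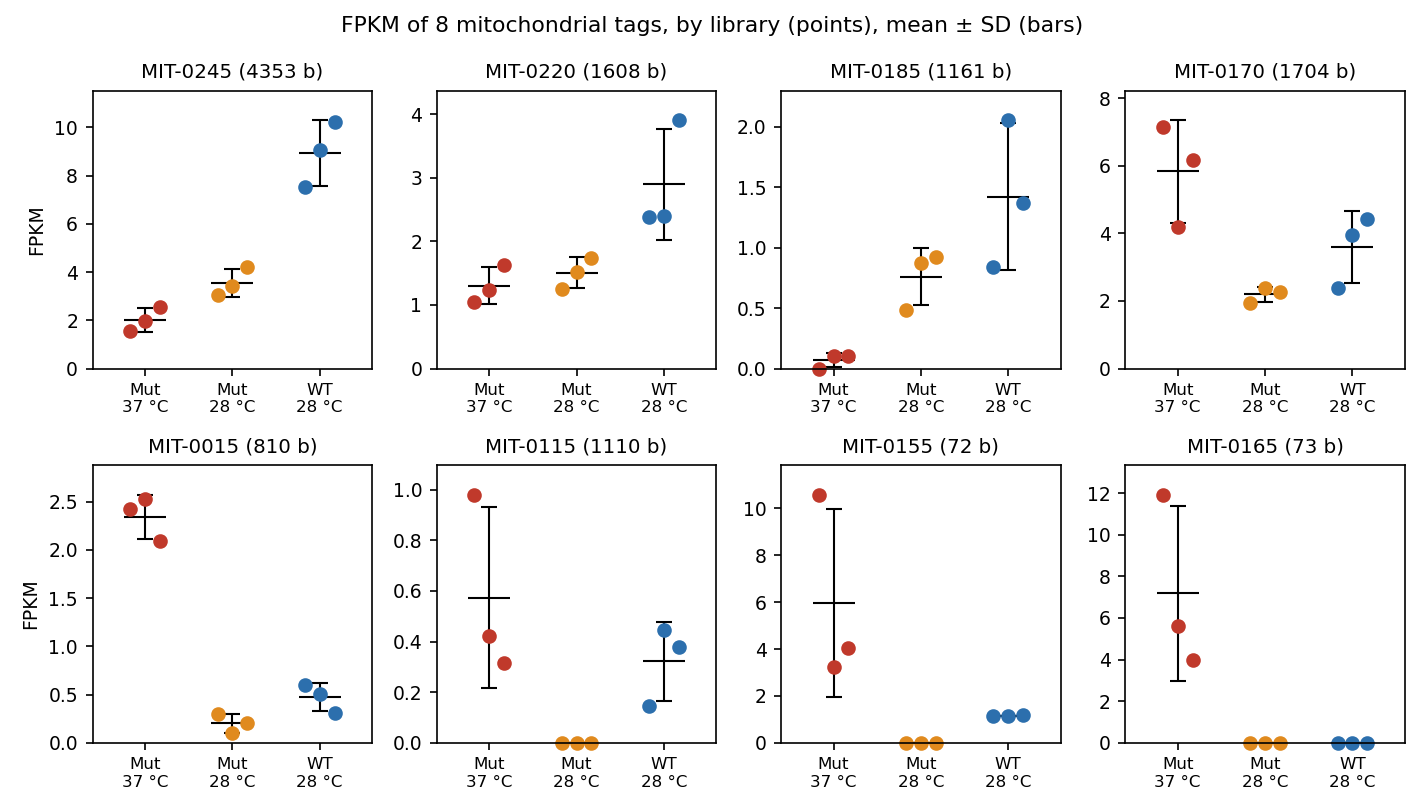
FPKM of 8 mitochondrial tags in Mut_Met_37C, Mut_Met and WT_Met, with a linear axis from 0 for each tag. Points are libraries, and bars are the mean ± SD of 3. MIT-0245 is highest in WT_Met and lowest in Mut_Met_37C, whereas MIT-0165, MIT-0155 and MIT-0015 are highest in Mut_Met_37C.

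The comparison of Mut_Met_37C with Mut_Met asked what the higher induction temperature changed in the robust mutant. It shares the Mut_Met libraries with the comparison above. Of 22 tags with reads in either group, 8 were tested, of which 4 rose at 37 °C, 0 fell and 4 were not called. All 4 that rose had a fold change above 2. Among the 8, MIT-0165, MIT-0155, MIT-0160 and MIT-0015 passed the filter only through Mut_Met_37C, where they were high, so the filter itself favoured rises in this tally. Without the filter, 5 of 22 tags were called higher and 1 lower. Over the 5459 features tested, 33.2% were called higher, 36.2% lower and 11% with a fold change above 2. When values were scaled to the summed recovered reads, 62.2% of features were called higher and 16.3% lower, and of 9 tags then tested 5 were higher and 0 lower. At an unadjusted p under 0.05, 4 of the 8 tags passed. Without replicate 1 of Mut_Met_37C, which stood apart over all features, 3 tags rose, of which 2 had a fold change above 2.

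The largest fitted increases among tested tags were those of MIT-0165 and MIT-0155, of 73 and 72 bases. By reads the order was not settled, as both have only lower bounds. MIT-0015 had a read ratio of 11.5, and MIT-0115, not tested, was at least 7.84-fold higher. MIT-0165 had 16, 7 and 5 reads in the Mut_Met_37C libraries and 0 in each Mut_Met library, which is 11.9, 5.604 and 3.995 FPKM at 37 °C. Its spread within Mut_Met_37C was wide, and its highest library was replicate 1. The fitted log2 fold change was 2.91 (SE 0.43, limma adjusted p = 0.000399), and by reads it was at least 6.46-fold higher in Mut_Met_37C. MIT-0165 and MIT-0155 passed the filter only through Mut_Met_37C, and their values of 0 in Mut_Met add no spread to the SE. Without the filter, limma adjusted p was 0.000152 for MIT-0165 and 0.000402 for MIT-0155. MIT-0155 had 14, 4 and 5 reads in the Mut_Met_37C libraries and 0 in each Mut_Met library, or 5.96 ± 4.03 FPKM at 37 °C (SD, n = 3). It was at least 5.30-fold higher by reads, with a fitted log2 fold change of 2.65 (SE 0.47, limma adjusted p = 0.00113). The neighbouring tag MIT-0160, singled out after its values were seen, had 8, 0 and 6 reads in Mut_Met_37C and 0 in each Mut_Met library, so the groups overlapped at 0 (limma adjusted p = 0.0718). Leaving out replicate 1, 2 or 3 of Mut_Met_37C gave limma adjusted p = 0.271, 0.00151 and 0.237, and replicate 2 is the library with 0 reads.

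The other tags that rose were longer, and both are described after their values were seen. MIT-0170 had 224, 122 and 180 reads in Mut_Met_37C, against 41, 48 and 47 in Mut_Met. The mean was 5.83 ± 1.51 FPKM in Mut_Met_37C and 2.20 ± 0.228 FPKM in Mut_Met (SD, n = 3 each). The log2 fold change was 1.07 (SE 0.25, limma adjusted p = 0.00443) and the read ratio was 2.67 (counting interval 2.21 to 3.25). Every 37 °C library was above every 28 °C library. Without replicate 1 of Mut_Met_37C its log2 fold change was 0.93 (limma adjusted p = 0.0203).

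MIT-0015, of 810 bases, had 36, 35 and 29 reads in Mut_Met_37C, against 3, 1 and 2 in Mut_Met. This was the most even response among the 4 tags, at 2.34 ± 0.228 FPKM in Mut_Met_37C and 0.202 ± 0.0972 FPKM in Mut_Met (SD, n = 3 each). The read ratio was 11.5 (counting interval 5.11 to 32.2), whereas the fitted log2 fold change of 1.48 (SE 0.44, limma adjusted p = 0.0158) was smaller because a pseudocount of 1 FPKM exceeds the level in Mut_Met. MIT-0015 passed the filter only through Mut_Met_37C, and without the filter limma adjusted p was 0.00102. Without replicate 1 of Mut_Met_37C the log2 fold change was nearly the same, at 1.46, and the tag was not called (limma adjusted p = 0.0642).

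In the opposite direction, MIT-0245 had 125, 147 and 190 reads in Mut_Met_37C, against 165, 177 and 222 in Mut_Met. Its FPKM of 1.56, 1.97 and 2.55 at 37 °C lay below the 3.06, 3.43 and 4.197 at 28 °C, with a log2 fold change of -0.60 (limma adjusted p = 0.0808) and a read ratio of 0.567 (counting interval 0.500 to 0.642). On the recovered reads, limma-voom called it lower, with adjusted p = 0.00326, and scaled to the summed recovered reads its log2 fold change was -0.31 (limma adjusted p = 0.334). MIT-0185 had 0, 2 and 2 reads in Mut_Met_37C, against 7, 12 and 13 in Mut_Met, a read ratio of 0.0865 (counting interval 0.0222 to 0.244), and its FPKM were under the limit for testing. MIT-0220 did not differ beyond its spread, at 1.31 ± 0.298 FPKM in Mut_Met_37C and 1.51 ± 0.244 FPKM in Mut_Met (SD, n = 3 each), with a read ratio of 0.865 (counting interval 0.647 to 1.16).

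MIT-0115 had 20, 8 and 6 reads in Mut_Met_37C and 0 in each Mut_Met library, at least 7.84-fold higher at 37 °C, and was not tested. Of the 8 tested tags, 4 were higher and 1 was lower in Mut_Met_37C without overlap between groups, where 35.1% and 38.4% of all features tested were higher and lower without overlap. Without the filter on low values, the median log2 fold change was 0.24 over the 22 tags with reads and -0.022 over all features.

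The comparison of Mut_Met_37C with WT_Met differs in both strain and temperature, whose effects cannot be told apart in it, and it shares its libraries with the comparisons above. Of the 24 tags with reads, 9 were tested, of which 3 rose in Mut_Met_37C (MIT-0165, MIT-0155 and MIT-0015), 1 fell (MIT-0245) and 5 were not called. All 4 had a fold change above 2. MIT-0165, MIT-0160 and MIT-0015 passed the filter only through Mut_Met_37C and MIT-0185 only through WT_Met, and without the filter 4 of 24 tags were called higher and 3 lower. Among the 5451 features tested, 33.1% were called higher, 39.1% lower and 12.3% with a fold change above 2. Scaled to the summed recovered reads, 64.7% of features were called higher and 17.5% lower, and of 10 tags then tested 5 were higher and 1 lower. MIT-0245 was at 2.03 ± 0.493 FPKM in Mut_Met_37C and 8.94 ± 1.35 FPKM in WT_Met (SD, n = 3 each). Its log2 fold change was -1.72 (SE 0.21, limma adjusted p = 0.000125) and its read ratio 0.226 (counting interval 0.203 to 0.251).

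MIT-0165 had 28 reads over the Mut_Met_37C libraries and 0 over the WT_Met libraries, at least 6.45-fold higher (log2 fold change 2.91, limma adjusted p = 0.000373). Like MIT-0015, it was tested only because of its level in Mut_Met_37C. MIT-0155 had 14, 4 and 5 reads in Mut_Met_37C, against 1, 1 and 1 in WT_Met, a read ratio of 5.30 with the wide counting interval of 1.60 to 27.6 (log2 fold change 1.55, limma adjusted p = 0.00755). MIT-0015 had 100 reads over the Mut_Met_37C libraries and 14 over the WT_Met libraries, a ratio of 4.94 (counting interval 2.81 to 9.36). It was called with all libraries (log2 fold change 1.19, limma adjusted p = 0.0265). Without replicate 1, 2 or 3 of Mut_Met_37C the log2 fold change was nearly the same, at 1.17, 1.15 and 1.24, and the tag was not called with the fewer libraries (limma adjusted p = 0.0829, 0.0536 and 0.0515).

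MIT-0185 had 0, 2 and 2 reads in Mut_Met_37C, against 12, 29 and 19 in WT_Met, and every 37 °C library was below every parent library. The read ratio was 0.0461 (counting interval 0.0122 to 0.124), while the test on log2(FPKM + 1) gave a log2 fold change of -1.15 with limma adjusted p = 0.0986, and limma-voom on reads gave adjusted p = 0.000862. MIT-0220 was also lower without overlap, with a read ratio of 0.450 (counting interval 0.351 to 0.576). It was not called on log2(FPKM + 1) (limma adjusted p = 0.0725) but was by limma-voom (adjusted p = 0.00667). MIT-0170 was at 5.83 ± 1.51 FPKM in Mut_Met_37C and 3.59 ± 1.06 FPKM in WT_Met (SD, n = 3 each), with overlap between libraries (limma adjusted p = 0.0762). Its read ratio was 1.64 (counting interval 1.40 to 1.93), and limma-voom called it higher (adjusted p = 0.0431). Leaving out replicate 1, 2 or 3 of Mut_Met_37C gave limma adjusted p = 0.205, 0.0325 and 0.172 for MIT-0170, and 0.272, 0.00119 and 0.226 for MIT-0160. Replicate 2 is the library of Mut_Met_37C with the lowest value for both tags. Of the 9 tested tags, 3 were higher and 3 lower in Mut_Met_37C without overlap between groups, against 34.9% and 40.9% of all features tested. Without the filter on low values, the median log2 fold change was 0.22 over the 24 tags with reads and -0.030 over all features.

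The composition of the mitochondrial reads set Mut_Met_37C apart from the groups at 28 °C. MIT-0245 took 25.2%, 39.1% and 38.2% of the mitochondrial reads in the Mut_Met_37C libraries, 63.7%, 64.1% and 66.3% in the Mut_Met libraries, and 75.1%, 71.6% and 70.9% in the WT_Met libraries. MIT-0170 took 45.1%, 32.4% and 36.1% in the Mut_Met_37C libraries, 15.8%, 17.4% and 14.03% in the Mut_Met libraries, and 9.35%, 12.2% and 12.0% in the WT_Met libraries. For both tags the 3 groups did not overlap, and the order of the groups was opposite. As these are shares of one sum, a higher share of some tags lowers that of the others.

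MIT-0015 took 7.46% ± 1.75 of the mitochondrial reads in Mut_Met_37C, 0.706% ± 0.409 in Mut_Met and 0.755% ± 0.361 in WT_Met (SD, n = 3 each). The short tags took 5.22% ± 2.53 in Mut_Met_37C, 0% in Mut_Met and 0.308% ± 0.138 in WT_Met. MIT-0220 kept a similar share throughout, at 8.11% ± 1.62 in Mut_Met_37C, 10.1% ± 0.429 in Mut_Met and 8.60% ± 1.52 in WT_Met. These shares do not depend on the scaling between libraries.

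**Figure D4:**
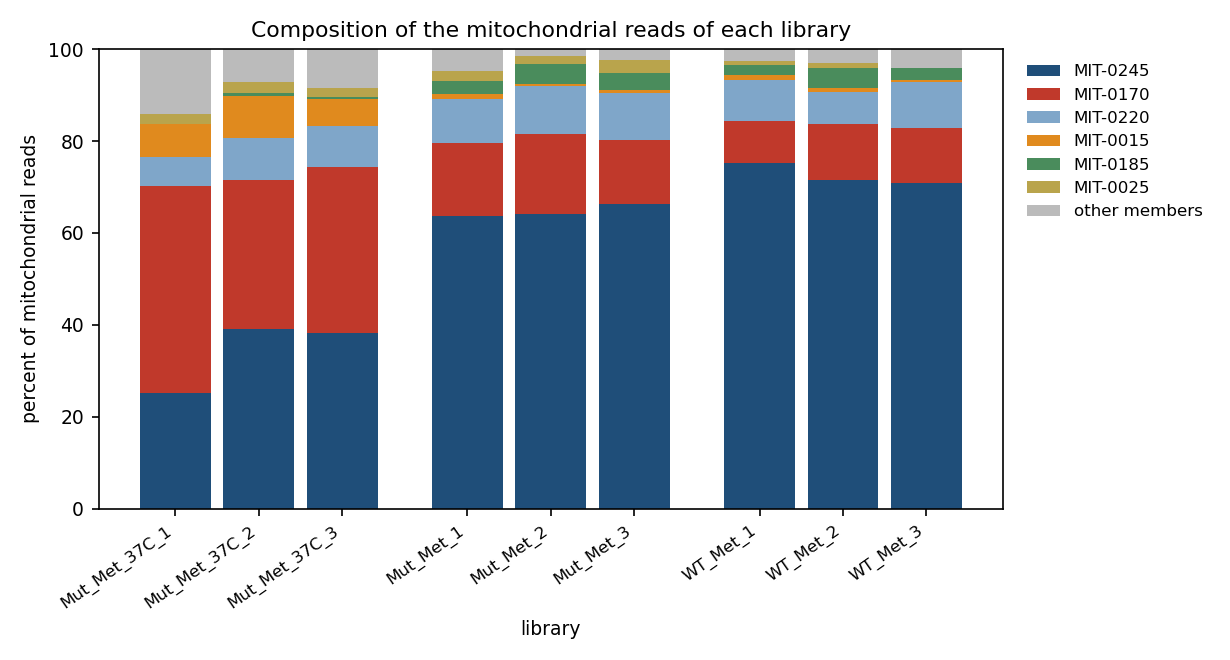
Percent of the mitochondrial reads of each library that lay on 6 tags and on all other tags together, as stacked bars for the 3 libraries of Mut_Met_37C, Mut_Met and WT_Met. MIT-0245 holds 25.2% to 39.1% in Mut_Met_37C and more than 60% of the reads in every 28 °C library, and the share of MIT-0170 is highest in Mut_Met_37C.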

How the data were processed

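RNA of 9 libraries was sequenced, and a company aligned the reads to the *P. pastoris* genome. The submitters' processing notes name CASAVA, HISAT2 2.0.5 and featureCounts 1.5.0-p3, and the genome build, annotation version and strand setting are not given in the sources used here. The authors deposited 1 value per feature and library, whose unit is not named and was inferred to be FPKM from the values. Low values of a feature are multiples of what 1 read is worth, which gave whole reads and lengths, and 100% of the 49103 values above 0 came out whole, within 0.0001 reads plus 1e-07 per read. The longest length, 14853 bases, equals that of the longest gene in a reference table of strain GS115.

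FPKM were tested with limma 3.58.1 in R 4.3.3 on log2(FPKM + 1), with an intensity trend and the libraries of 2 groups in each fit. Features averaging at least 1 FPKM in either group were tested, with Benjamini-Hochberg adjustment over all of them. An adjusted p under 0.05 was called, also with an absolute log2 fold change above 1. The recovery of reads and the limma step were each run on simulated data. For limma this covered Mut_Met versus WT_Met only, with changes set in features above a minimum FPKM that most mitochondrial tags did not reach. It does not show how limma performs at the low levels of these tags. Read ratios are scaled by the deposited library size, with exact conditional intervals. A fold against 0 reads uses a floor of 3 reads over the group. Other steps ran in Python 3.11.15 with scipy 1.17.1, pandas 2.3.3, numpy 2.4.6 and matplotlib 3.10.9.

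The mitochondrial tags and lists were chosen with earlier results of these data known. As no identifier is annotated, the rule named at most 2 tags that rose and 2 that fell per comparison, those with the largest absolute log2 fold change among called tags; further tags were chosen after their values were seen. The reference table of 5040 tags held 0 of the 49 mitochondrial tags and names no nuclear tag of the files, so a planned list of nuclear genes of the respiratory chain was not run. Alternatives covered the pseudocount (0.1), the filter (none, or 10 reads), 3 scalings, limma-voom, no intensity trend, all 3 groups in one fit, a replicate block and each replicate left out.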

Additional observations from a re-analysis of the deposited data

How the results depend on the processing

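The mitochondrial share of the library was 0.00457% of summed FPKM in Mut_Met_37C, 0.00108% in Mut_Met and 0.00220% in WT_Met. Without MIT-0245, the mean share of recovered reads was 0.00205% in Mut_Met_37C, 0.000765% in Mut_Met and 0.00131% in WT_Met. This turned the order of the means of Mut_Met_37C and WT_Met, as summed FPKM did. Leaving out each replicate gave 0.00291% to 0.00331% in Mut_Met_37C, 0.00199% to 0.00233% in Mut_Met and 0.00434% to 0.00517% in WT_Met.

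For Mut_Met versus WT_Met, the tags called lower numbered 3 of 15 tested with no filter on low values. With a filter of 10 recovered reads they numbered 2 of 10. They numbered 3 of 6 by limma-voom, 4 of 6 without intensity trend and 2 of 6 with all 3 groups in one fit. The main fit called 1 of 6. Over all features, 34.3% to 37.2% were called lower in these settings. Those with a fold change above 2 numbered 2 of 15 with no filter, 2 of 6 without trend and 2 of 6 with all 3 groups in one fit. The share of all features with such a change was 3.58% in the main fit and was not counted in the other settings. For Mut_Met_37C versus Mut_Met, 1 tag, MIT-0245, was called lower in 5 settings, against 0 of 8 in the main fit. It was 1 of 22 with no filter, 1 of 12 with 10 reads, and 1 of 8 by limma-voom, without trend and with all 3 groups. Over all features, 35.4% to 37.7% were called lower in these settings. Leaving out a replicate gave 3 to 5 higher tags of 8 to 10 tested, 2 to 5 with a fold change above 2. Over all features, 29.9% to 33.7% were then called higher.

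For Mut_Met_37C versus WT_Met, 5 of 10 tags were higher when scaled to summed reads and 5 of 10 when scaled to reads outside the mitochondrial genome. Under both scalings, 64.7% of all features were higher. Without trend, 5 of 9 tags and 33.0% of all features were higher. In the main fit these were 3 of 9 tags and 33.1%. The lower tags numbered 2 of 9 with a pseudocount of 0.1, 3 of 24 with no filter and 3 of 12 with 10 reads. They numbered 3 of 9 by limma-voom, without trend and with all 3 groups, against 1 of 9. Over all features, 38.8% to 40.1% were called lower in these settings. Leaving out a replicate gave 2 to 4 higher tags, 3 to 4 with a fold change above 2. By limma-voom, MIT-0155 was not called (adjusted p = 0.0525), and MIT-0170 was called higher (adjusted p = 0.0431). The causes were not tested.

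Scaling to summed reads moved the median log2 fold change of all features to 0.36 in Mut_Met_37C versus Mut_Met and to 0.41 in Mut_Met_37C versus WT_Met, with 62.2% of features higher and 16.3% lower in Mut_Met_37C versus Mut_Met, and 64.7% higher and 17.5% lower in Mut_Met_37C versus WT_Met. Under this scaling, MIT-0220 changed sign in Mut_Met_37C versus Mut_Met, to 0.11, without a call.

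Samples share replicate numbers. Correlations between the deviations of same-numbered libraries were -0.14 to 0.25, of both signs, which neither show nor exclude pairing. With a replicate block, MIT-0015 was not called in Mut_Met_37C versus WT_Met (limma adjusted p = 0.0593). This left 2 higher tags of 9, where 32.9% of all features were higher. In the other comparisons the block left 1 lower tag in Mut_Met versus WT_Met and 4 higher tags in Mut_Met_37C versus Mut_Met.

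Most tags had too few reads for a test. Tags with no reads were not detected in these libraries, and the reason was not tested.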
